A study of Mus musculus with 4 samples.

Results

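The miR-200 family comprises 5 mouse microRNAs (miRNAs) that are abundant in epithelial cells, namely miR-200b, miR-200a, miR-429, miR-200c and miR-141. It was followed here in mouse lung with 7 of 750 quantitative PCR assays: 5 assays named for the mouse miRNAs, all on the first of 2 assay cards, and 2 assays named for rat miR-200b and rat miR-200c, on the second card. The members were taken by their listed miRNA name and not by their values, although earlier results of these data were known when they were chosen. The 4 libraries came from lungs of newborn mice (under 12 h old at the start, collected at day 3) and of adult mice (2 months old); the exposure lasted 72 h, to either room air or 95% oxygen, called hyperoxia. All 4 groups had the pulmonary artery rinsed with PBS before the right lung was taken, and the nursing mothers were moved between room air and hyperoxia every 24 h. The labels name no strain, sex or genetic change, nor how many animals went into a library. Each group had 1 library, so no difference between 2 libraries has a replicate check.

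miR-200 miRNAs are known to repress the transcription factors ZEB1 and ZEB2, which in turn repress E-cadherin and both miR-200 loci. This mutual repression helps to hold cells in an epithelial or a mesenchymal state, and the family falls when epithelial cells take on mesenchymal traits. In lung the miRNAs are known from airway and alveolar epithelium, the cells that oxygen injury and postnatal growth of the alveoli affect directly. These libraries are whole lung, in which fewer epithelial cells and less miRNA per epithelial cell cannot be told apart.

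The 5 guide strands (the strand that acts on targets) are shown because they differ at few bases and split by seed across the loci. They come from RefSeq (GRCm38.p6) and matched for 5 of 5 mouse names. Capitals mark the seed, bases 2 to 8, which pairs with target messages.
mmu-miR-200b: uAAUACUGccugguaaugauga
mmu-miR-429: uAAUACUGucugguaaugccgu
mmu-miR-200c: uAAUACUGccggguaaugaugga
mmu-miR-200a: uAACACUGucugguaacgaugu
mmu-miR-141: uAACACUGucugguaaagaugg

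The seed of miR-200b, miR-429 and miR-200c differs from that of miR-200a and miR-141 at a single base, U4C counted from the 5′ end of miR-200b against miR-200a. Of 1679 mature mouse miRNAs in the RefSeq table, the first seed was held by these 3 alone and the second by these 2 alone. miR-200b and miR-200c, from different loci, differ by U11G and A22G, and miR-200c has 1 base more. miR-200a and miR-141, likewise from different loci, differ by C17A and U22G. The hairpins of miR-200b, miR-200a and miR-429 lie together on the minus strand of chr4:156053905-156055750, a span of 1846 bases that falls within the long noncoding RNA gene Gm13648 (chr4:156052715-156059802). The hairpins of miR-200c and miR-141 lie on the minus strand of chr6:124717914-124718390, a span of 477 bases between the protein-coding genes Phb2 and Ptpn6 that overlaps no other listed gene. Each locus therefore holds both seeds.

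A threshold cycle (Ct) is the PCR cycle at which an assay's signal crosses a set level, and a Ct lower by 1 means about 2-fold more template if amplification is perfect. Levels are given as log2 values, the Ct of the small nucleolar RNA snoRNA202 on the same card minus the Ct of the miRNA, so that higher values mean more RNA. A second scale uses the card median, the median Ct of the miRNA assays of a card detected in all 4 libraries (236 on the first card, 190 on the second), in place of snoRNA202. Detection required a Ct no later than 35. All 7 members were detected in all 4 libraries, at Ct 13.5 to 19.3. Over all assays, 468 to 507 of 750 were detected per library, and the assay for a plant miRNA, included as a negative control, gave no signal. The technical SD of a difference, from 4 control RNAs measured on both cards, was 0.26 log2 for hyperoxia against room air in newborns, 0.33 in adults, 0.65 for adult against newborn in room air and 0.95 in hyperoxia. It was computed against snoRNA202, also where it is set beside the card-median scale, and leaves out variation between animals.

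miR-200c, on chromosome 6, showed the largest oxygen differences of the 7 members, and they ran in opposite directions at the 2 ages. In newborns its level was -1.97 log2 in room air and -0.77 in hyperoxia, and in adults -1.14 and -2.39. It was thus highest in oxygen-exposed newborns and lowest in oxygen-exposed adults. The difference after hyperoxia was 1.21 log2 in newborns, 2.31-fold higher, and -1.26 in adults, 2.39-fold lower, each more than 3 times the technical SD. On the card-median scale the values were 1.00 in newborns and -0.94 in adults. In newborns 12.7% of the 267 first-card assays compared were at least 2-fold higher, and in adults 7.32% of 246 were at least 2-fold lower. The same-card neighbours miR-200a, miR-200b and miR-200c occupy adjoining wells. In neonatal hyperoxia the 24 wells of that row followed the mean of the other 3 libraries with r = 0.769 across wells. Without miR-191, which had a Ct of 40 there and of 13.3 to 14.4 elsewhere, r was 0.986. Such an r is unchanged by an offset shared by the whole row, so it gives no check of one. How far a shift of a few wells would change it was not tested.

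The other mouse assays moved less. miR-200b stood at -3.36 (room air) and -2.63 (hyperoxia) in newborns and at -2.76 and -3.52 in adults. Its oxygen differences were 0.73 in newborns and -0.76 in adults. miR-200a stood at -2.82, -2.42, -2.32 and -2.78 in the same order of libraries, with oxygen differences of 0.40 and -0.46. In both miRNAs the oxygen-exposed newborn and the room air adult were the higher pair of libraries. miR-429 stood at -3.15, -2.34, -4.30 and -4.32, with oxygen differences of 0.80 in newborns and -0.02 in adults. miR-141, the partner of miR-200c in its locus, stood at -5.28, -5.14, -5.33 and -5.85, with oxygen differences of 0.13 and -0.51. The 4 levels of miR-141 span 0.70 log2 against 1.63 for miR-200c.

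**Figure D1:**
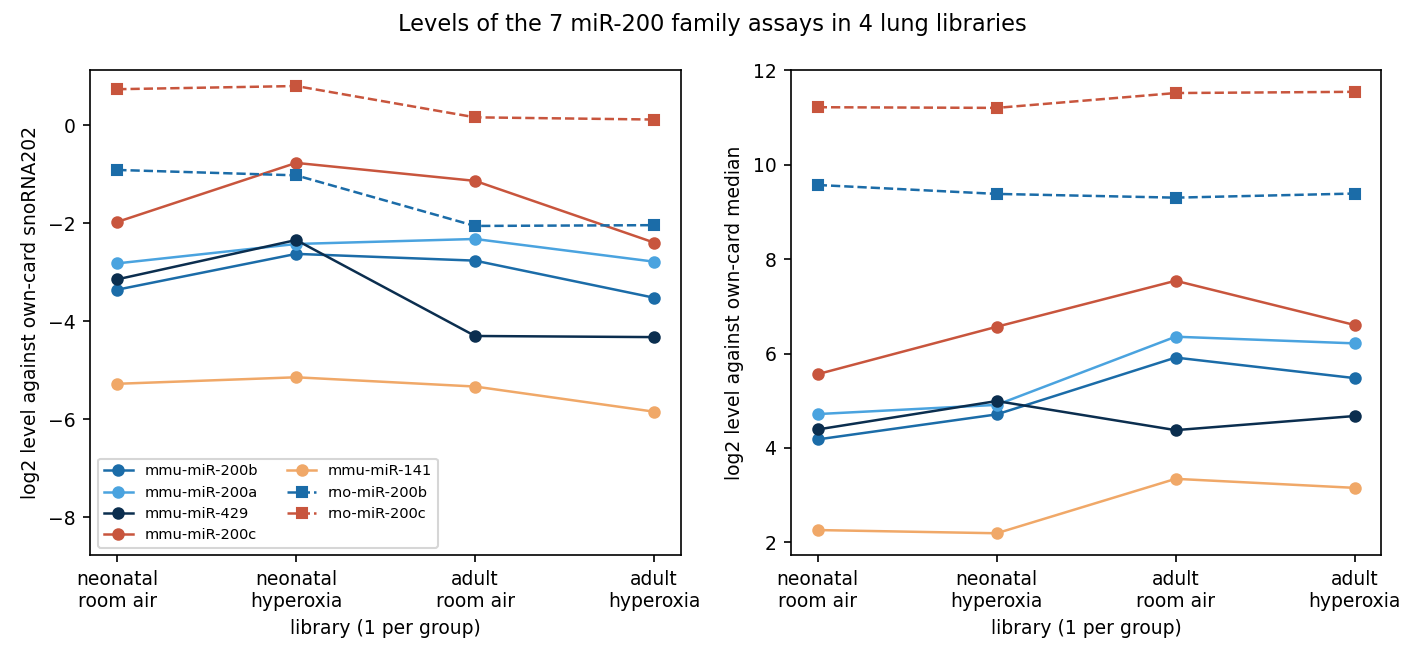
Log2 levels of the 7 assays in the 4 libraries, against own-card snoRNA202 (left) and against the own-card median (right); each point is 1 library, circles are mouse-named assays, squares rat-named assays, and lines only join points of an assay. Against snoRNA202, mmu-miR-200c spans 1.63 log2 and rno-miR-200c 0.68, and mmu-miR-429 is the mouse assay with the widest span, 1.98.

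Across the 5 mouse assays the median difference after hyperoxia was 0.73 log2 in newborns, with 5 of 5 above 0 and 1 of 5 at least 2-fold higher, against 12.7% of first-card assays. Of the 5, 4 lay above 0 by more than the technical SD, as did 48.3% of first-card assays. The first-card median of all assays was 0.24, and 69.3% of those assays were above 0. In adults the median was -0.51, with 5 of 5 below 0 and 1 of 5 at least 2-fold lower, against 7.32% of first-card assays; the median of all first-card assays was -0.29, and 24.4% were above 0. Of the 5, 4 lay below 0 by more than the technical SD, as did 45.1% of first-card assays. On the card-median scale the family medians were 0.53 and -0.19, with 4 of 5 above 0 in newborns and 4 of 5 below 0 in adults. Of all first-card assays, 54.3% lay above 0 in newborns and 53.7% in adults on that scale. miR-141 in newborns (-0.07) and miR-429 in adults (0.30) changed side. On that scale 3 of 5 lay above by more than the technical SD in newborns, against 31.5% of first-card assays, and 2 of 5 below in adults, against 17.1%. Whether the response to oxygen differs between the ages could not be tested with 1 library per group. The adult and newborn oxygen differences share no library.

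**Figure D2:**
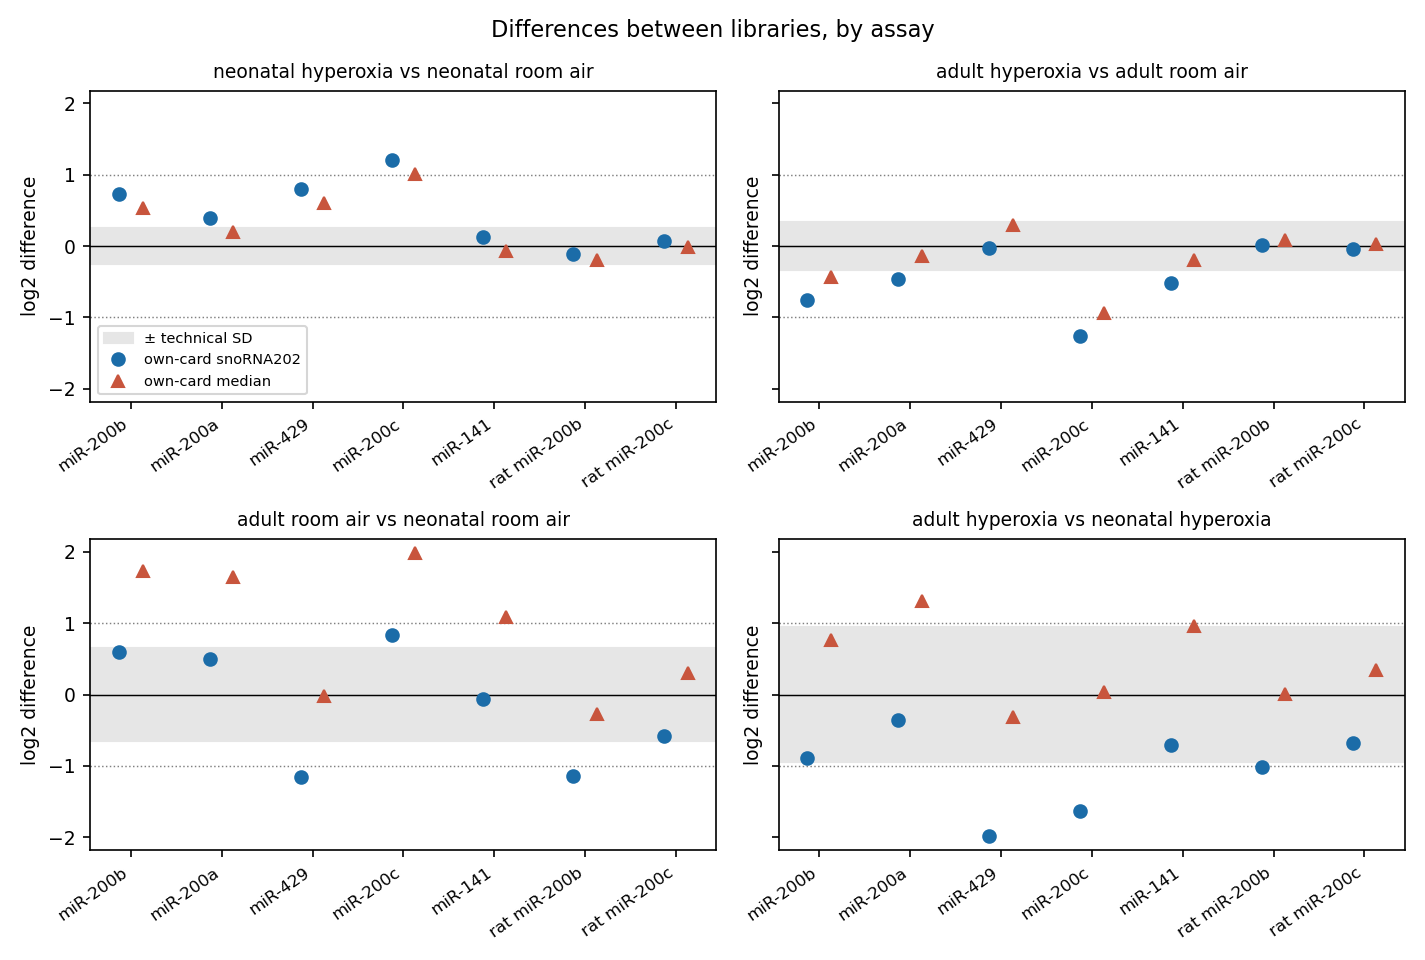
Log2 differences of each assay in the 4 comparisons, against own-card snoRNA202 (circles) and the own-card median (triangles); the grey band is ± the technical SD of that comparison and dotted lines mark 2-fold. The miR-200c circle lies at 1.21 in newborns and -1.26 in adults after hyperoxia, while both rat-named assays lie within the band in those panels on both scales.

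The rat-named assays of the second card gave smaller oxygen differences than the mouse assays of the same miRNAs. Their catalogue numbers differ from those of the mouse assays, so they are different assay designs, and the rat sequences were not used here. rno-miR-200c stood at 0.74 log2 (room air) and 0.80 (hyperoxia) in newborns and at 0.16 and 0.12 in adults. Its oxygen differences were 0.07 in newborns and -0.05 in adults, within the technical SD. rno-miR-200b stood at -0.91, -1.02, -2.06 and -2.04, with oxygen differences of -0.11 and 0.02. With U6 of the same card in place of snoRNA202, the newborn oxygen differences were 0.57 for rno-miR-200c and 0.39 for rno-miR-200b. These had the direction of the mouse assays, which were then at 1.12 and 0.65. The technical SD holds for the snoRNA202 scale and gives no error for these values. In adults they were -0.01 and 0.06 with U6. U6 itself differed by 0.59 between the cards in the newborn comparison. Against the card median their 4 levels spanned 0.34 and 0.27 log2, where the mouse assays of miR-200c and miR-200b spanned 1.98 and 1.73. Both rat-named assays were among the 10 earliest of the second card in every library. The card offset differs between the scales, and its part in these gaps was not tested.

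Of the mouse-named and rat-named assays that carry the same miRNA number, 33 pairs sit on different cards. Besides miR-200b and miR-200c, 17 of these pairs were detected in both newborn libraries. Their median absolute gap between the mouse and the rat-named oxygen difference was 0.42 log2, and 9 of 17 had the same sign. The gaps of miR-200b and miR-200c were 0.84 and 1.14, and each was exceeded by 3 of the 17. In adults 15 other pairs had a median absolute gap of 0.41, and 9 of 15 had the same sign. The gaps of miR-200b and miR-200c were -0.77 and -1.21, exceeded in size by 3 and by 1 of the 15. For age the median absolute gaps of the other pairs were 0.84 in room air (15 pairs) and 0.80 in hyperoxia (16 pairs), with the same sign in 13 of 15 and 13 of 16. There miR-200b had gaps of 1.74 and 0.12, exceeded in size by 3 of 15 and 15 of 16 other pairs, and miR-200c of 1.41 and -0.94, exceeded by 6 of 15 and 6 of 16. Against the card median the gaps in hyperoxia were 0.76 for miR-200b and -0.30 for miR-200c, exceeded by 9 and 13 of the 16.

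**Figure D3:**
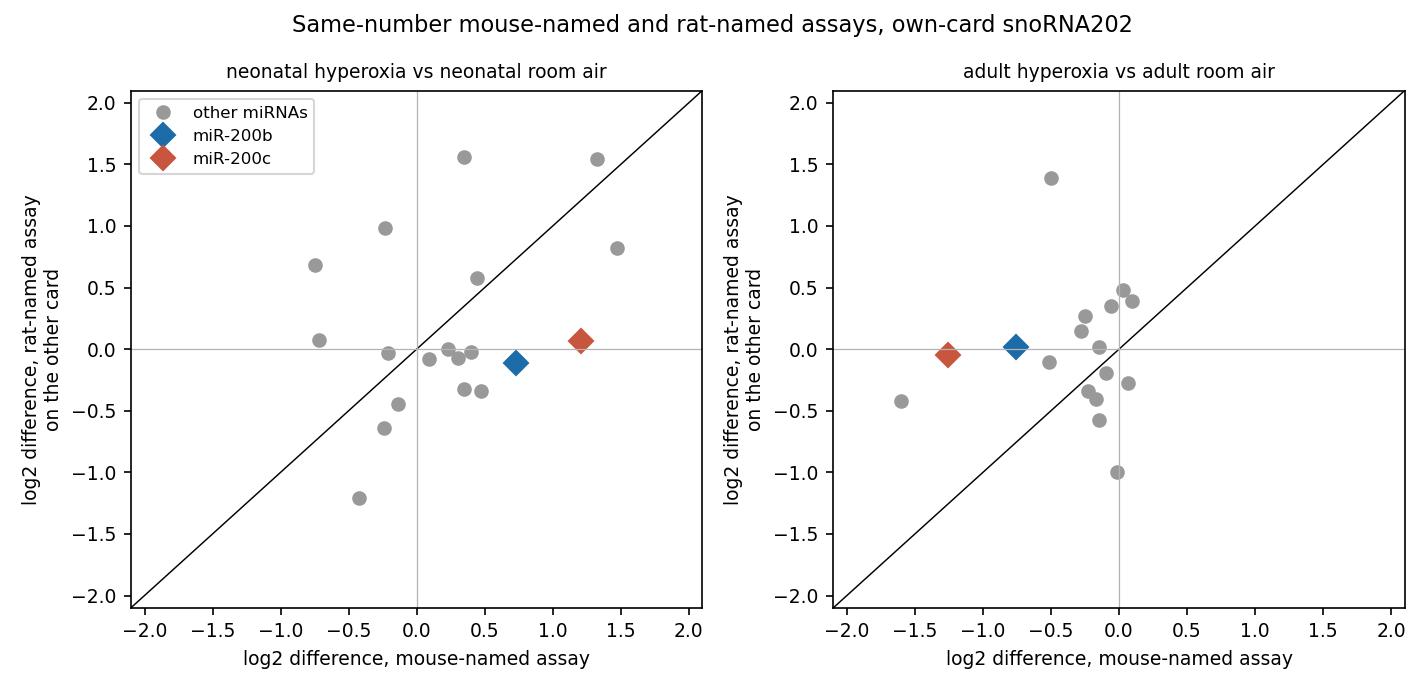
Log2 difference after hyperoxia on the mouse-named assay (x axis) against the rat-named assay of the same number on the other card (y axis), in newborns (left) and adults (right), against own-card snoRNA202; each point is 1 miRNA and the diagonal marks equal values. miR-200c moves from 1.21 to -1.26 on the x axis and stays at 0.07 and -0.05 on the y axis.

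With age, miR-429 parted from the mouse-named assays of the other miRNAs of its locus, miR-200b and miR-200a. Against snoRNA202 its adult minus newborn difference was -1.16 log2 in room air (2.23-fold lower) and -1.98 in hyperoxia (3.95-fold lower), while miR-200b was at 0.59 and -0.90 and miR-200a at 0.50 and -0.36. Of the 5 mouse assays, 1 was at least 2-fold lower in adults in room air and 2 in hyperoxia, where 37.9% and 48.2% of first-card assays were; none was 2-fold higher, where 18.3% and 9.49% were. The second of the 2 was miR-200c, at -1.63 in hyperoxia and 0.84 in room air. miR-141 was at -0.06 and -0.70. The rat-named assay of miR-200b, on the second card, was at -1.14 and -1.02, close to miR-429 in room air. On the card-median scale the age differences of miR-429 were -0.01 and -0.32, against 1.73 and 0.77 for miR-200b and 1.64 and 1.30 for miR-200a. rno-miR-200b was then at -0.27 and 0.0075, so the parting from miR-200b was seen with its mouse-named assay only. On that scale 4 of 5 mouse assays, all but miR-429, were at least 2-fold higher in adult room air and 1 of 5 in adult hyperoxia, where 45.8% and 41.9% of first-card assays were. The size of the age difference of miR-429 thus rested on the scale, while its distance from its neighbours on the same card does not involve the reference.

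Ratios within the first card need no reference. The log2 ratio of miR-200a to miR-429 was 0.33 (room air) and -0.08 (hyperoxia) in newborns, and 1.98 and 1.54 in adults. The newborn and adult libraries did not overlap, and the ratio was 1.65 higher in adults in room air and 1.62 higher in hyperoxia. The ratio of miR-200b to miR-429, which share a seed, was -0.21, -0.28, 1.54 and 0.80, again without overlap, with age differences of 1.75 and 1.09. By contrast, the ratio of miR-200b to miR-200a stayed between -0.74 and -0.20 in all 4 libraries.

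Such shifts were frequent on this card. Of 25200 pairs among 225 first-card assays that crossed by Ct 32 in all libraries, 81% had ratios without overlap between the ages, and 57.3% shifted at least 2-fold the same way in room air and in hyperoxia. Of the 10 pairs within the family, 5 had no overlap and 3 shifted at least 2-fold at both oxygen levels. Those 3 all involve miR-429, paired with miR-200b, miR-200a and miR-141. The non-overlapping pairs without such a shift were miR-429 with miR-200c and miR-200a with miR-141. No repeat measurement gives the precision of a within-card ratio.

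**Figure D4:**
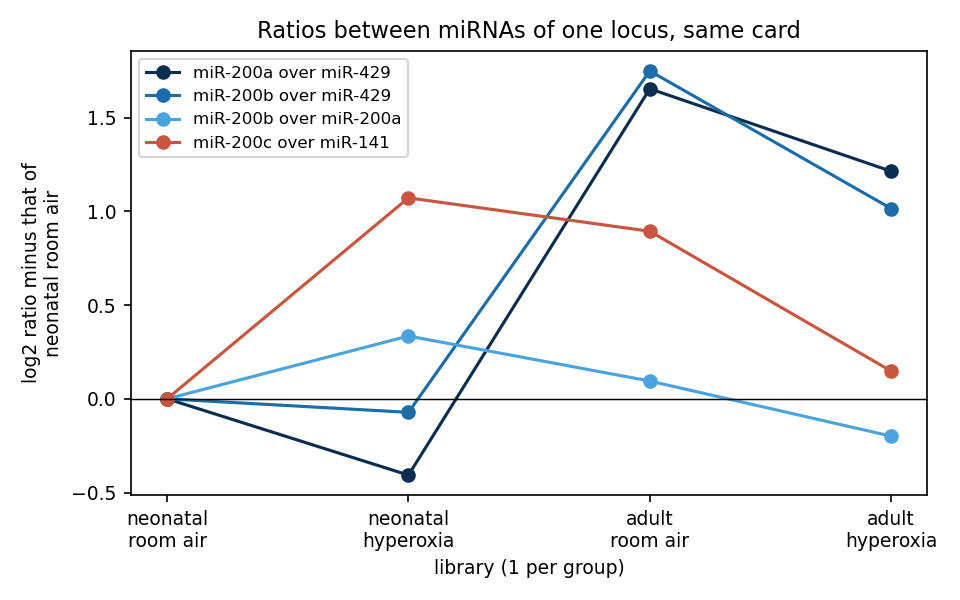
Log2 ratios between miRNAs of the same locus, each set to 0 in neonatal room air, in the 4 libraries; both miRNAs of a pair were read on the first card, so no reference RNA enters, each point is 1 library and lines only join points. The ratios to miR-429 rise by 1.65 and 1.75 in adult room air, miR-200b over miR-200a stays within 0.34 of its starting value, and miR-200c over miR-141 is highest in neonatal hyperoxia.

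In the chromosome 6 locus the ratio of miR-200c to miR-141 was 3.30 (room air) and 4.38 (hyperoxia) in newborns, and 4.20 and 3.45 in adults. It was 1.07 higher after hyperoxia in newborns and 0.75 lower in adults. Between the loci, the mean difference of miR-200b, miR-200a and miR-429 minus that of miR-200c and miR-141 was -0.03 log2 for oxygen in newborns and 0.47 in adults. For age it was -0.41 in room air and 0.08 in hyperoxia. The seeds differed in part. For the shared seed of miR-200b, miR-429 and miR-200c the contrast was -0.44 and 0.87 for oxygen in newborns and adults, and for miR-200a against miR-141 it was 0.26 and 0.05. For age the same contrasts were -1.12 and 0.55 in room air and 0.19 and 0.34 in hyperoxia. The contrasts of the 2 seeds thus had opposite signs for oxygen in newborns and for age in room air, and the same sign in the other 2 comparisons. Profiles over the 4 libraries did not group by locus: the root mean square distance between 2 members' centred profiles was 0.19 to 0.85 log2 for the 4 pairs within a locus and 0.24 to 0.75 for the 6 pairs across loci. The closest pair was miR-200b with miR-200a and the farthest miR-200a with miR-429, both within the chromosome 4 locus.

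Age and oxygen were fitted together, without interaction, by limma to the 426 miRNA assays detected in all 4 libraries. For age, 0 of 7 members passed a Benjamini-Hochberg adjusted p of 0.05, where 35.7% of all assays did, and 2 of 7 had an unadjusted p under 0.05, where 218 of 426 assays did. These 2 were miR-429, at -1.57 ± 0.38 log2 (SE; limma, adjusted p = 0.0587), and rno-miR-200b, at -1.08 ± 0.30 (limma, adjusted p = 0.0730). The mouse assay of miR-200b was at -0.15 ± 0.51 (limma, adjusted p = 0.833) and that of miR-200c at -0.39 ± 0.75 (limma, adjusted p = 0.699). On the card-median scale 2 of 7 rose with age, where 31.9% of all assays did: miR-200a by 1.47 ± 0.26 (limma, adjusted p = 0.0271) and miR-141 by 1.02 ± 0.25 (limma, adjusted p = 0.0480). Against snoRNA202 these were at 0.07 ± 0.38 (limma, adjusted p = 0.896) and -0.38 ± 0.35 (limma, adjusted p = 0.440). The median age coefficient of all 426 assays was -0.84 against snoRNA202 and 0.38 against the card median. For oxygen, limma called 0 of 7 members and 0% of all assays on either scale, with 0 members and 13 of 426 assays at an unadjusted p under 0.05 against snoRNA202. Without an interaction, opposite oxygen differences at the 2 ages cancel: the oxygen coefficient of miR-200c was -0.03 ± 0.75, the mean of its newborn and adult differences. The gap between those 2 differences, -2.46 log2 for adult minus newborn, goes into the residual. The SE rises with it and is no measure of replicate noise.

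The passenger strands, the partner strands cut from the same hairpins, were read on the second card for 4 of the 5 miRNAs. They are shown because a change of the whole hairpin would be read on both strands.
mmu-miR-200b*: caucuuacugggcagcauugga
mmu-miR-200a*: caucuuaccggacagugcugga
mmu-miR-200c*: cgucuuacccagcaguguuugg
mmu-miR-141*: caucuuccagugcaguguugga

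In newborns miR-200c* had a Ct of 40, no crossing, in room air and of 28.2 in hyperoxia, and in adults of 32.7 and 32.04. With Ct 35 as the limit it was at least 6.08 log2 higher in newborns after hyperoxia, in the same direction as its mouse guide assay. That bound rests on 1 well without a crossing, and whether that well failed was not tested. miR-191 also had a Ct of 40 in 1 library and of 13.3 to 14.4 elsewhere. The rat-named guide assay, rno-miR-200c, was at 0.07 in newborns. In adults miR-200c* was 0.79 log2 higher after hyperoxia, opposite to the guide at -1.26. miR-141* stood at -16.52, -15.48, -15.90 and -17.89 in the order of libraries used above. It was 1.05 log2 higher in newborns and 1.99 lower in adults after hyperoxia, where the guide was at 0.13 and -0.51. Its Ct values were 29.6 to 31.8, and the precision of such late assays was not measured. miR-200b*, at Ct 25.8 to 27.2, had oxygen differences of 0.02 and -0.80, against 0.73 and -0.76 for its guide. miR-200a*, the earliest at Ct 22.1 to 23.0, had oxygen differences of -0.28 and 0.02, against 0.40 and -0.46. For age in room air and in hyperoxia, miR-200b* was at -0.23 and -1.04, miR-200a* at -0.74 and -0.44, and miR-141* at 0.62 and -2.41. miR-200c* was at -4.66 in hyperoxia. The second-card medians of all assays were -0.97 and -1.04. In limma 0 of the 3 passenger strands fitted were called for age or oxygen. Of the 3 passenger strands detected in both newborn libraries, 1, miR-141*, was at least 2-fold higher after hyperoxia, where 14.9% of such second-card assays were. Against the card median miR-141* was 0.97 higher.

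Other miRNAs with known epithelial expression gave a mixed picture. Of 8 listed (miR-205, miR-182, miR-183, miR-96, miR-375, miR-203, miR-192 and miR-215), 7 were matched by name on the cards, all on the first. After hyperoxia 0 of 7 differed 2-fold in newborns, where 17.2% of first-card assays did in either direction, from -0.55 for miR-205, a miRNA of basal cells that also targets ZEB1 and ZEB2, to 0.64 for miR-183, with a median of 0.02. In adults 0 of 7 differed 2-fold, where 11.8% of first-card assays did, with a median of -0.30. For age, limma called 2 of 7, miR-205 at -2.23 ± 0.34 (adjusted p = 0.0279) and miR-182 at -1.67 ± 0.31 (adjusted p = 0.0374), and both fell, where 35.7% of all assays were called in either direction. On the card-median scale neither was called, and 4 of 7 rose (miR-96, miR-203, miR-192 and miR-215), where 31.9% of all assays did.

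Markers of other cell types were read in the same libraries, and their part in the miR-200 differences was not tested. Summed over a list on the linear scale and given as log2 against snoRNA202, the 5 mouse miR-200 assays ranged from -0.66 to 0.22 in newborns and from -1.03 to -0.19 in adults. The 4 leukocyte assays ranged from -0.56 to -0.19 and from -0.25 to 0.11, the 2 smooth muscle assays from -1.70 to -1.41 and from -0.61 to -0.48, and endothelial miR-126-5p (1 of 2 matched by name) from -0.19 to 0.10 and from 0.49 to 0.56. The 3 mesenchymal assays were lower in adults, at -2.20 to -1.98 in newborns and -3.82 to -3.40 in adults. The 3 erythroid assays ranged from -5.11 to -4.48 and from -5.38 to -5.14. The 4 multiciliated cell assays ranged from -0.78 to -0.32 and from -1.72 to -1.29, with miR-449b detected in neonatal room air only. The lower sum in adults came from miR-449a (age differences -3.17 in room air and -3.61 in hyperoxia) and, in room air only, miR-449b. By contrast, miR-34b-3p (1.32 and 0.06) and miR-34c (1.30 and 0.87) were above 0. All sums are against snoRNA202, where the median age difference of first-card assays was -0.39 in room air and -0.95 in hyperoxia. Against the card median miR-449a was at -2.03 and -1.94, miR-34b-3p at 2.46 and 1.72, and miR-34c at 2.44 and 2.53. After hyperoxia in newborns, 3 of 4 leukocyte assays (median 0.39) and 3 of 3 measured multiciliated cell assays (median 0.63) lay above 0, none 2-fold. Of all first-card assays 69.3% lay above 0, with a median of 0.24, and 12.7% were at least 2-fold higher. All 3 of 3 erythroid assays lay below 0 (median -0.69). Of these miR-144 sits on the second card, where 44.6% of assays lay above 0. In adults the medians of the leukocyte, multiciliated cell and erythroid assays were -0.39, -0.19 and -0.32, against -0.29 for all first-card assays.

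The first-card assays nearest to the family's mean profile over the 4 libraries were miR-151-3p (root mean square distance 0.078 log2), miR-133b (0.098), miR-93 (0.109), miR-484 (0.120) and miR-138 (0.121), out of 220 candidates with a median distance of 0.61. The family's mean profile, centred on its own mean, was -0.08 (room air) and 0.57 (hyperoxia) in newborns, and 0.06 and -0.54 in adults. None of these 5 is on the epithelial list, but only 7 of that list were on the card, few beside 220 candidates, so this says little.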

How the data were processed

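Per the labels' protocols, RNA from whole right lung (4 groups, 1 library each) went through Megaplex reverse transcription, preamplification and TaqMan array cards A and B. The authors deposited Ct values and Ct minus the Ct of snoRNA202, both on a log2 scale, per the file headers. The sources used here do not give the software, threshold or baseline. In the adult room air library the deposited differences of all 384 second-card wells use the first card's snoRNA202 (own minus used, 0.225 cycles), so levels were recomputed from Ct against snoRNA202 of the well's own card. A well without a crossing holds a Ct of 40. Depth in reads does not exist for this assay.

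A difference between 2 libraries was taken for assays that crossed by Ct 35 in both and counted at 2-fold. The technical SD is the root mean square gap between cards in the differences of U6, snoRNA135, U87 and Y1 against own-card snoRNA202, divided by the square root of 2. Age and oxygen were fitted additively with limma 3.58.1 (R 4.3.3, lmFit and eBayes, Benjamini-Hochberg adjustment over 426 assays, threshold 0.05), with 1 residual and 2.16 prior degrees of freedom, and checked on simulated data. The residual of an assay is set by the gap between its oxygen differences at the 2 ages. An oxygen response that differs with age thus enters the error, together with any technical scatter. The labels do not say that libraries are separate animals, so the p-values cover no variation known to lie between animals. Figures were drawn with matplotlib 3.10.9. Named were all members, the passenger strands of their hairpins, the epithelial and cell type lists, and the 5 first-card assays (crossing by Ct 32 in every library) nearest to the family's mean profile. The members and lists were chosen with earlier results of these data known. The alternatives were 5 other normalizations, other Ct limits, single-term models and seed-matched contrasts; replacing the mouse assays by the rat-named ones was chosen after seeing the data.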

Additional observations from a re-analysis of the deposited data

Results flagged for a closer look

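The oxygen differences of all 7 assays had opposite signs in newborns and adults against own-card snoRNA202. On that scale 69.3% of all first-card assays lay above 0 in newborns and 24.4% in adults. On the second card these shares were 44.6% and 33.7%. How many of all assays had opposite signs was not counted. With 1 library per group the difference between the ages was not tested. The newborn and adult values were 1.21 and -1.259 log2 for mmu-miR-200c, 0.731 and -0.757 for mmu-miR-200b, 0.396 and -0.463 for mmu-miR-200a, 0.803 and -0.023 for mmu-miR-429, and 0.133 and -0.513 for mmu-miR-141. The rat-named assays gave -0.11 and 0.016 (rno-miR-200b) and 0.065 and -0.045 (rno-miR-200c), all within the technical SD. Against the card median the signs of mmu-miR-429 and mmu-miR-141 were no longer opposite. With the library mean this held for mmu-miR-200a (0.23 and 0.20), mmu-miR-429 (0.64 and 0.64) and rno-miR-200b (-0.10 and -0.02). With U6 it held for mmu-miR-429 (0.72 and 0.22) and rno-miR-200b (0.39 and 0.06). It also held for mmu-miR-429 with snoRNA202 and snoRNA135, and for rno-miR-200c with the deposited values. The signs of mmu-miR-200c and mmu-miR-200b stayed opposite under all 6 normalizations.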

How the results depend on the processing

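The miR-200 values rest on 1 library per group, on the choice of reference and on which assay read miR-200b and miR-200c. No paired analysis was possible because each group holds 1 library and the labels carry no replicate numbers; leaving out a library leaves the additive model with no residual degrees of freedom. Where values below differ from those in the report, the cause was not tested. Precision at late Ct was not measured.

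For newborns after hyperoxia the median of the 5 mouse assays kept its sign under all 6 normalizations (0.53 to 0.73 log2) and was 0.133 with the rat-named assays in place of the mouse miR-200b and miR-200c. For adults after hyperoxia it was 0.154 with the library mean and -0.045 with the rat-named assays, and 0 assays were 2-fold lower with the card median or the library mean. For age in room air the median was 1.64 with the card median, 3.14 with U6 and -0.574 with the rat-named assays. The number 2-fold higher was 4 with the card median, 2 with the library mean, 5 with U6 and 2 with snoRNA202 and snoRNA135, and the number 2-fold lower was 0 with each of these. For age in hyperoxia the median was 0.77 with the card median, 0.36 with the library mean and 2.08 with U6. The number 2-fold higher was 1 with the card median and 4 with U6, and the number 2-fold lower was 0 with the card median, the library mean and U6 and 1 with snoRNA202 and snoRNA135.

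The contrast between loci for oxygen in newborns was -0.438 for the first seed, 0.263 for the second and 0.264 with the rat-named assays. In adults it was 0.869, 0.05 and 0.122. For age in room air it was -1.12 for the first seed and 0.554 for the second.

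Single age differences turned for rno-miR-200b in room air with the library mean (0.307) and in hyperoxia with the card median (0.0075) and the library mean (0.387). rno-miR-200c turned with the card median (0.30 in room air, 0.34 in hyperoxia) and the library mean (0.88 and 0.72). With U6 it turned in room air (0.55). mmu-miR-141 turned in room air with the card median (1.09), the library mean (0.37), U6 (2.59) and snoRNA202 with snoRNA135 (0.37). Age differences turned with U6 for mmu-miR-429 (1.49 in room air, 0.995 in hyperoxia), and for mmu-miR-200c in hyperoxia with the card median (0.0385) and U6 (1.35). In hyperoxia mmu-miR-200b, mmu-miR-200a and mmu-miR-141 turned with the card median (0.77, 1.30 and 0.96) and the library mean (0.36, 0.89 and 0.55). They also turned there with U6 (2.08, 2.62 and 2.275). With snoRNA202 and snoRNA135, mmu-miR-200a (0.385) and mmu-miR-141 (0.044) turned in hyperoxia.

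In limma, the number of members called higher with age was 2 with the card median and 5 with U6. The number called lower was 1 with a Ct limit of 32 (miR-429, adjusted p = 0.0415) and 2 with age alone in the model (miR-429, adjusted p = 0.0319, and rno-miR-200b, adjusted p = 0.0280). Age coefficients turned with the card median for mmu-miR-200b (1.25), mmu-miR-200c (1.01), mmu-miR-141 (1.02) and rno-miR-200c (0.32). With the library mean they turned for mmu-miR-200b (0.69), mmu-miR-200c (0.44), mmu-miR-141 (0.46), rno-miR-200b (0.35) and rno-miR-200c (0.80). With U6 they turned for mmu-miR-200b (2.66), mmu-miR-429 (1.24), mmu-miR-200c (2.42), mmu-miR-141 (2.43) and rno-miR-200c (0.26), and with snoRNA202 and snoRNA135 for mmu-miR-200b (0.44), mmu-miR-200c (0.19) and mmu-miR-141 (0.21).

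No oxygen coefficient was called under any alternative. Those that changed sign lay near 0. In the order mmu-miR-200b, mmu-miR-200a and mmu-miR-200c they were 0.0475, 0.027 and 0.0335 with the card median, 0.24, 0.22 and 0.22 with the library mean, 0.068, 0.048 and 0.054 with U6, and 0.081, 0.061 and 0.067 with snoRNA202 and snoRNA135. mmu-miR-141 was at 0.060 and rno-miR-200c at -0.0050 with the library mean, and rno-miR-200b at 0.0655 with the deposited values and 0.23 with U6.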
